A study of Mus musculus with 9 samples.

Results

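The genes described here are the mouse Zfp genes that metaphase II (MII) oocytes, the ovulated eggs arrested in the second meiotic division, held at an appreciable level. A gene was included when its symbol was Zfp followed by a number, its biotype was protein-coding, and its mean over 9 libraries was at least 10 CPM. CPM is a gene's count divided by all counts of its library and scaled to a common total. Zfp36, Zfp36l1 and Zfp36l2, whose products carry another type of finger, and Zfp57 were left out by name. This gave 154 of the 379 Zfp genes and of the 30153 genes in the joined tables, or 2.12% of the 7278 protein-coding genes at 10 CPM or more. The level over all libraries thus chose the genes, so levels are given as a description. The rule used no difference between groups, though it was set with earlier results of these data known.

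All oocytes came from superovulated females 4 weeks old, of mixed genetic background, with the genotype Sycp3CreERT2/+; Rosa26nT-nG/+. Each female was given 5 IU of PMSG and, 48 h later, 5 IU of hCG, hormones that drive follicle growth and ovulation. Oocytes were taken 13 h after hCG. Sycp3CreERT2 is a Cre recombinase that acts in the nucleus after tamoxifen and is driven by the meiotic gene Sycp3. Rosa26nT-nG is a reporter that makes a nuclear red protein until Cre recombines it and a nuclear green protein afterwards. Oocytes freed of cumulus cells were picked by hand by their fluorescence into 3 groups: GFP High, GFP Low and RFP. Each group had 3 pooled libraries, of 15 to 16 oocytes in GFP High, 49 to 57 in GFP Low and 87 to 100 in RFP. Poly-A RNA was sequenced, and the comparisons ask whether oocytes with different reporter states differed in their transcripts. The labels do not say whether the pools of a group came from separate animals, so p-values measure the spread between these pools.

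Library totals lay between 19381677 and 27746256 counts, so a gene at 10 CPM rested on 194 to 277 counts. The eGFP transcript was at 36.2 to 43.3 CPM in the GFP High pools, 14.5 to 23.9 CPM in those of GFP Low and 0 to 0.594 CPM in those of RFP, in the order of the labels. All 12 oocyte markers examined were counted in every library. Their summed level was 11945 to 13125 CPM for GFP High, 11228 to 11995 CPM for GFP Low and 11410 to 11921 CPM for RFP. None was called, but 10 of 12 had a positive log2 fold change between GFP High and RFP, with a median of 0.16, and 11 of 12 between GFP High and GFP Low, with a median of 0.14. In each of these comparisons 4 had an unadjusted p under 0.05 by edgeR, against 4.09% and 3.77% of all genes tested. Of the protein-coding genes at 10 CPM or more other than the Zfp genes, 51.7% and 51.5% had a negative fold change. Of 15 cumulus and granulosa markers found in the tables, between 1 and 10 were at 0 in a library. Their summed level was 123 to 221 CPM for GFP High, 146 to 160 CPM for GFP Low and 142 to 205 CPM for RFP, and 1 gene, Nr5a2, held most of it at a mean of 121 CPM. GFP High 1, at 221 CPM, and RFP 2, at 205 CPM, stood above the other libraries, which lay at 123 to 160 CPM. Whether these pools held more cumulus-cell RNA was not tested.

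Most Zfp genes encode C2H2 zinc finger proteins. In such a finger, a pair of cysteines and a pair of histidines hold a zinc ion, and the short helix between them reads DNA bases. Fingers stand in tandem, so a protein with many of them can read a long site. Many of these proteins also carry a KRAB domain, which recruits the co-repressor Trim28 and, through it, the histone methyltransferase Setdb1. KRAB zinc finger proteins of the oocyte and early embryo are known for silencing retroelements and for guarding methylation at imprinted genes. Other Zfp genes act at RNA, at the spindle or in ubiquitin transfer.

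The coding sequence of a finger is printed for genes that the results below turn on. Capitals mark the codons of the cysteines and histidines. Zfp108, with 12 fingers and a KRAB domain, and Zfp655, with 6 fingers, show the usual spacing. Zfp830 and Zfp318, which act at RNA, show the longer spacing between the histidines. Zfp296 was the gene with the smallest p-value among those higher in GFP High than in RFP, and Zfp759 had the largest difference. The first finger of each is given, from GENCODE release M21 on the build GRCm38.
Zfp108: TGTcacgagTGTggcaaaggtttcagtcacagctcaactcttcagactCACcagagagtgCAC
Zfp655: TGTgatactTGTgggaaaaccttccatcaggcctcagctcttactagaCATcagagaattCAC
Zfp830: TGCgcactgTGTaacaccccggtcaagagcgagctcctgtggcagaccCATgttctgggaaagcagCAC
Zfp296: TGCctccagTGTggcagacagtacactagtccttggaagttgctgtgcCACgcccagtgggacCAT
Zfp318: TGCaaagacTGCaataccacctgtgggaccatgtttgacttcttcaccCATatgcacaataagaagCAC
Zfp759: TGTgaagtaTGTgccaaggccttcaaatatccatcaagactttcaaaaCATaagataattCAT
These fingers lie on the plus strand, at chr7:24260832-24260894 for Zfp108 (exon 3 of 3), chr5:145244066-145244128 for Zfp655 (exon 4 of 4) and chr11:82764528-82764596 for Zfp830 (exon 1 of 1). That of Zfp296 lies at chr7:19579639-19579704 (exon 3 of 3), that of Zfp318 at chr17:46409145-46409213 (exon 7 of 10) and that of Zfp759 at chr13:67138876-67138938 (exon 4 of 4).

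The 154 genes ranged in mean level from 10.01 to 619 CPM, with a median of 34.9 CPM. Only 27 reached 100 CPM, while 97 lay under 50 CPM and 41 of those under 20 CPM. The 10 with the highest CPM held 32.8% of the sum over all 154. Scaled by gene length as the authors' FPKM (fragments scaled by gene length and library total), the median was 7.11, against 11.05 for the other protein-coding genes at 10 CPM or more, and the range was 0.720 to 141. Together the 154 genes took 1.02% ± 0.0294 of all counts for GFP High, 1.03% ± 0.0127 for GFP Low and 1.05% ± 0.0193 for RFP (SD, n = 3). In bulk pools, fewer oocytes with a transcript and less of it per oocyte cannot be told apart.

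Of the 225 Zfp genes below the minimum, 112 lay at 1 to 10 CPM and 113 under 1 CPM. Zfp24, Zfp618 and Zfp39 stood just inside it, at 10.01, 10.06 and 10.1 CPM. Zfp583, Zfp384 and Zfp516 stood just outside it, at 9.58, 9.53 and 9.47 CPM. Zfp57, a KRAB zinc finger protein that keeps imprints and was left out by name, had a mean of 2586 CPM, above each of the 154.

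A KRAB domain was listed for 73 of the 154 genes in the annotation deposited with the counts, a SCAN domain for 2, a BTB domain for 1, and none of these for 78. Of the 207 KRAB genes in the family, 35.3% reached 10 CPM, and of the 164 with none of these domains, 47.6%. The median FPKM was 6.99 for the KRAB genes and 7.66 for those with none of the domains. That annotation does not list a KRAB domain for some genes known to have one, and it lists none for Zfp932 and Zfp809. The 78 genes with none of these domains can therefore include KRAB genes.

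Levels per library are given in the order of replicates 1, 2 and 3. Zfp750, a transcription factor known from epidermal differentiation, had the highest FPKM. It was at 163, 151 and 135 FPKM in the GFP High libraries, 139, 137 and 137 in those of GFP Low and 144, 130 and 130 in those of RFP. The 3 groups overlapped, with GFP High 1 and 2 above the rest. Zfp957 came next, at 100, 127 and 121 FPKM in the GFP High libraries, 106, 107 and 105 in those of GFP Low and 117, 105 and 103 in those of RFP. Its lowest and its highest value both came from GFP High.

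Zfp655 was at 114, 115 and 108 FPKM in the GFP High libraries, 107, 107 and 105 in those of GFP Low and 113, 109 and 107 in those of RFP. Its log2 CPM varied least of all 154 genes over the 9 libraries, with an SD of 0.04. Zfp830, whose product takes part in pre-mRNA splicing and genome maintenance, was at 87.8, 120 and 91.1 FPKM in the GFP High libraries, 98.7, 104 and 99.8 in those of GFP Low and 90.8, 92.3 and 98.8 in those of RFP. GFP High 2 stood above the other 8 libraries. Zfp296, a repressor found at heterochromatin, was at 98.3, 122 and 112 FPKM in the GFP High libraries, 79.7, 97.4 and 101 in those of GFP Low and 80.0, 93.6 and 85.8 in those of RFP. On this scale its GFP High libraries all lay above its RFP libraries.

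The other 5 of the 10 highest were Zfp280b at a mean of 80.4 FPKM, Zfp212 at 66.2, Zfp592 at 61.1, Zfp108 at 56.6 and Zfp982 at 52.1. Zfp592 is a partner of a chromatin co-regulator complex. Zfp212, Zfp108 and Zfp982 were the 3 genes among the 10 highest with a KRAB domain listed. From the top of this order, Zfp957 and Zfp655 differed in mean by less than the SD over the 9 libraries, and so did Zfp830, at a mean of 98.2 FPKM, and Zfp296, at 96.6 FPKM.

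**Figure D1:**
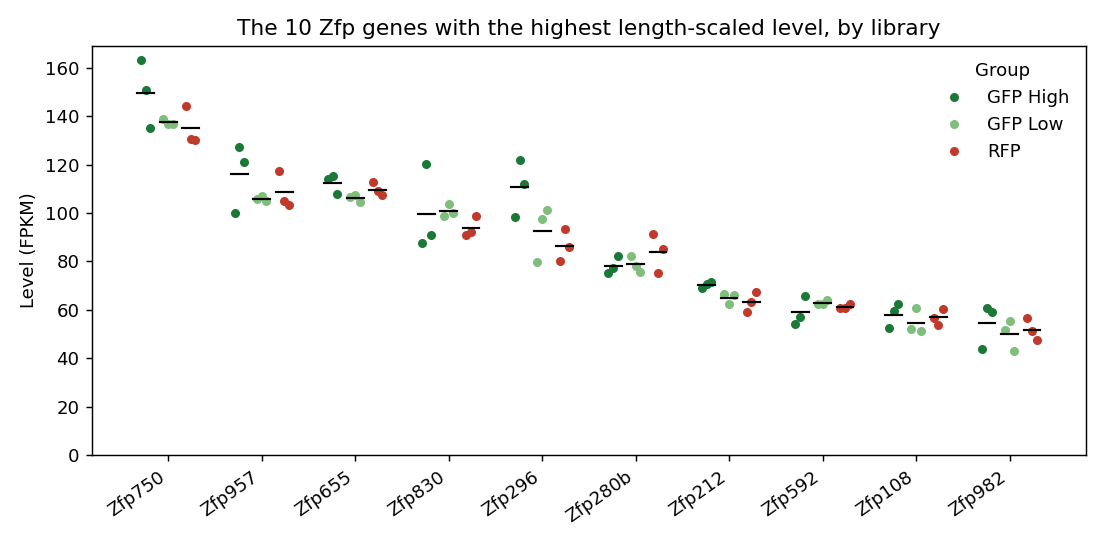
Level in FPKM of the 10 Zfp genes with the highest mean, in each of the 9 libraries (points, coloured by group), with the group mean as a bar. Zfp750 lies between 130 and 163 FPKM, and the groups overlap for most of the genes.

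The number of fingers was counted in the translated longest coding sequence of 153 of the genes as a pattern of 2 cysteines 2 to 4 residues apart, 12 residues, and 2 histidines (or a histidine and a cysteine) 3 to 5 residues apart. The median was 11 fingers, and 85 genes had 10 or more. Zfp142 had 40, the highest count, and Zfp236 and Zfp729b had 30 each. No such pattern was found in Zfp957, Zfp839 and Zfp330, and 1 was found in each of 7 genes. The KRAB genes had a median of 12 fingers, and those with none of the listed domains a median of 7. The linker that joins tandem fingers was present in 107 of the genes, 70 of them KRAB genes.

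The 22 genes with 3 or fewer had a median of 12.6 FPKM, and the 85 with 10 or more a median of 6.16 FPKM. The 10 genes with the highest FPKM had a median of 5.5 fingers. These genes were chosen by a minimum in CPM, which lies at a lower FPKM for a longer gene, so these medians only describe the chosen genes. The Zfp genes below 10 CPM had a median of 10 fingers, close to the 11 of those above.

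**Figure D2:**
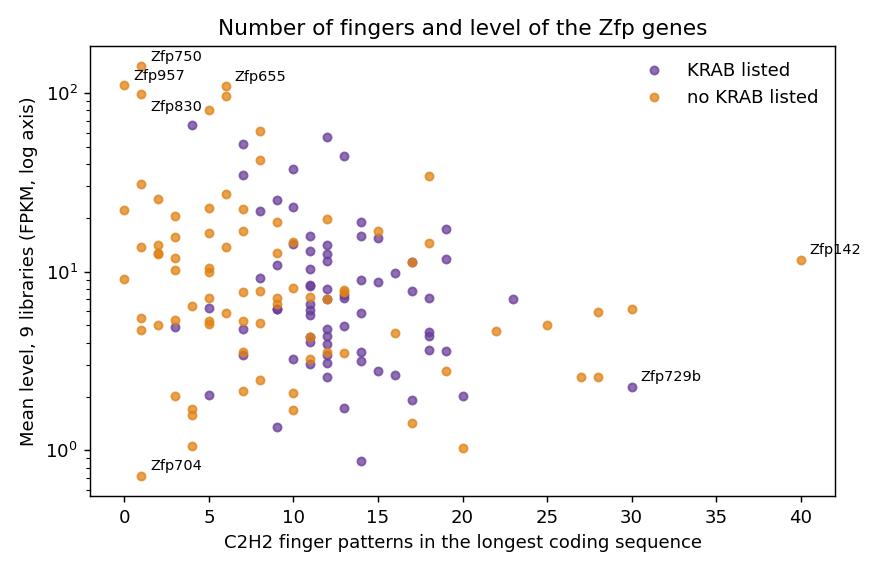
Mean level in FPKM over 9 libraries (log axis) against the number of C2H2 finger patterns, for 153 Zfp genes coloured by whether a KRAB domain was listed. Zfp750, Zfp957 and Zfp830 have at most 1 pattern and lie at the top left, and Zfp142 with 40 lies at 11.7 FPKM.

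Zfp genes stood on 20 chromosomes, and many stood in clusters, which this family is known to form by tandem duplication. With Zfp genes at most 250 kb apart joined into 1 cluster, 48 of the 154 genes fell into 9 clusters that each held at least 3 of them, and 74 had no Zfp neighbour. Chromosome 7 carried 34 of the 154 genes and 90 Zfp genes in all. Chromosome 17 carried 19 of 43, and chromosome 13 carried 9 of 33.

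The cluster at 21.38 to 22.46 Mb of chromosome 17 held 18 Zfp genes, of which 8 reached 10 CPM, and all 8 were KRAB genes. Their summed level was 245 ± 30.5 CPM for GFP High, 264 ± 8.996 for GFP Low and 279 ± 6.33 for RFP (SD, n = 3). The groups overlapped, with GFP High 3 at 278 CPM and GFP Low 1 at 274 CPM above RFP 3 at 271 CPM. The cluster at 29.77 to 30.17 Mb of chromosome 7 held 15, of which 8 reached 10 CPM, with sums of 209 ± 26.9, 219 ± 10.95 and 218 ± 6.48 CPM in the same order. The cluster on chromosome 13 held 21, of which 5 reached 10 CPM. Of the 9 clusters with 3 or more genes at 10 CPM, the SD of the sum was largest in GFP High for 5 and in another group for 4.

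Near copies limit how counts can be assigned. For 20 of the 154 genes, at least 200 bases of coding sequence matched another gene at 95% identity or more, and for 10 the match covered at least 50% of the coding sequence. Zfp955a and Zfp955b, neighbours on chromosome 17, were 98.2% identical over 1638 bases. Their second finger is printed because it shows how few bases tell the genes apart.
Zfp955a: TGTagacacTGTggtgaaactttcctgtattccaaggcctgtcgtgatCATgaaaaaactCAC
Zfp955b: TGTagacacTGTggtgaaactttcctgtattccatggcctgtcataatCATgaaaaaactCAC
These 2 fingers differ at 3 bases, and 3 of the 10 fingers compared were identical between the genes. That of Zfp955a lies at chr17:33242221-33242283 on the minus strand and that of Zfp955b at chr17:33302432-33302494 on the plus strand, each in exon 4 of 4. The deposited levels were 37.6 FPKM for Zfp955a and 23.1 FPKM for Zfp955b. In GFP High, Zfp955b was at 59.6, 22.5 and 30.4 CPM, a wider range than the 32.2 to 41.2 CPM of RFP.

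Zfp97 and Zfp960 were 98.2% identical over 1641 bases, with means of 19.2 and 20.01 CPM. Zfp932 matched Gm15446 at 96.9% over 86.9% of its coding sequence, and that gene had a mean of 49.3 CPM. The levels of each of these genes are uncertain to the extent that reads could be given to the copy. In addition, 38 of the 154 genes overlapped a gene on the opposite strand, which for 11 was at 10% or more of their own CPM. Whether counting used strand is not given in the sources used here.

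None of the 154 genes differed between GFP High and RFP at an adjusted p under 0.05 (edgeR's quasi-likelihood test, Benjamini-Hochberg over 14829 genes), where 0.0135% of all genes tested did. The smallest adjusted p among them was 0.997. Fitted log2 fold changes ran from -0.87 to 0.53, with a median of -0.04 over the 154 genes and -0.01 over all genes tested. Their median standard error was 0.19, larger than the median size of the changes, 0.12. At an unadjusted p under 0.05 by edgeR there were 11 genes, or 7.14%, against 4.09% of all genes tested. Of these, 2 were higher in GFP High, against 2.27% of all genes, and 9 were lower, against 1.81%. The count ran from 3 without RFP replicate 1 to 17 without GFP High replicate 1, and the median fold change was -0.12 without GFP High replicate 3. DESeq2 gave 13 at an unadjusted p under 0.05 and limma-voom gave 12, and neither called a gene after adjustment. In the authors' deposited table, too, no gene of the 154 had an adjusted p under 0.05 and the lowest was 0.219.

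The replicates did not overlap between GFP High and RFP for 17 of the 154 genes, against 11.8% of all genes tested, so that the 11.04% of these genes lay near the background. Of the 17, 5 were higher in GFP High (background 5.04%) and 12 were lower (background 6.8%). A change of at least 0.5 on the log2 scale was fitted for 9 genes, or 5.84%, against 3.4% of the other protein-coding genes at 10 CPM or more, and a change of 1 for none. Of the 9, 8 had a mean under 50 CPM.

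Zfp318, a nuclear protein known for controlling which immunoglobulin transcript B cells make, had the smallest p-value. It was at 56.8, 44.9 and 62.6 CPM in the GFP High libraries, 74.3, 70.8 and 83.5 in those of GFP Low and 76.8, 77.9 and 81.3 in those of RFP. All GFP High libraries lay below all others. The fitted difference between GFP High and RFP was -0.51 ± 0.15 (log2, SE), with an unadjusted p of 0.00573 and an adjusted p of 0.997 by edgeR.

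Zfp866, a KRAB gene, was at 20.2, 15.7 and 21.6 CPM in the GFP High libraries, 24.9, 26.1 and 26.1 in those of GFP Low and 30.1, 27.7 and 31.1 in those of RFP. The 3 groups did not overlap, and the log2 difference between GFP High and RFP was -0.62 ± 0.19 (SE, edgeR adjusted p = 0.997). The gene overlaps Atp13a1, on the opposite strand, whose mean CPM was 166% of that of Zfp866. Zfp759, a KRAB gene with 19 fingers from the cluster on chromosome 13, had the largest difference, -0.87 ± 0.32 (SE, edgeR adjusted p = 0.997). It was at 12.6, 5.49 and 8.82 CPM in the GFP High libraries, 15.4, 17.7 and 14.3 in those of GFP Low and 14.0, 17.1 and 18.4 in those of RFP. Here GFP High lay below both other groups and varied more than they did.

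Zfp296 was at 202, 245 and 230 CPM in the GFP High libraries, 164, 200 and 209 in those of GFP Low and 166, 194 and 179 in those of RFP. It was higher in every GFP High library than in any RFP library, with a log2 difference of 0.34 ± 0.11 (SE, edgeR adjusted p = 0.997), but overlapped GFP Low. It overlaps Gemin7, on the opposite strand, at 74.9% of its CPM. Zfp60, a KRAB gene of chromosome 7 with 19 fingers, was at 126, 124 and 132 CPM in the GFP High libraries, 165, 164 and 139 in those of GFP Low and 172, 150 and 149 in those of RFP. Its log2 difference between GFP High and RFP was -0.28 ± 0.11 (SE, edgeR adjusted p = 0.997). None of these 5 genes passed after adjustment.

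**Figure D3:**
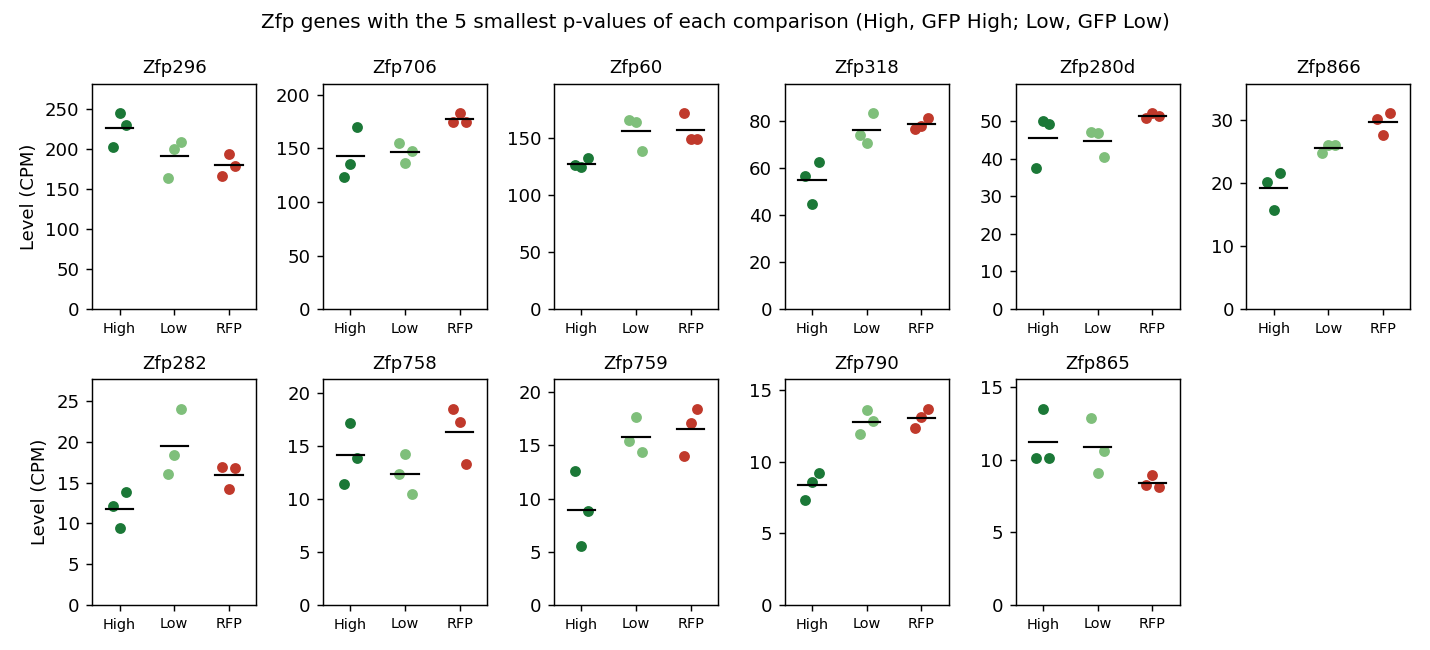
Level in CPM, per library, of the 11 Zfp genes that had the 5 smallest p-values in at least 1 comparison, with group means as bars and each axis starting at 0. In GFP High, Zfp318 lies at 44.9 to 62.6 CPM, below the 70.8 to 83.5 CPM of the other groups. No gene shown passed the adjusted threshold in any comparison.

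Between GFP Low and RFP, the comparison with the larger pools, the 154 genes lay closer together. None passed an adjusted p under 0.05 by edgeR, where 0.0197% of the 15199 genes tested did, and the smallest adjusted p was 1.00. The log2 fold changes ran from -0.40 to 0.37, with a median of -0.02 against -0.00 over all genes tested and a median standard error of 0.13. At an unadjusted p under 0.05 there was 1 gene by edgeR, by DESeq2 and by limma-voom, or 0.649% against 2.62% of all genes tested. Without 1 library there were 2 to 4 such genes. The 1 gene was lower in GFP Low, the direction of 1.34% of all genes tested, and none was higher, against 1.28%. The replicates did not overlap for 7 genes, or 4.55% against 7.68%, of which 3 were higher (background 3.62%) and 4 lower (background 4.07%). No gene reached a change of 0.5 on the log2 scale, which 0.421% of the other protein-coding genes at 10 CPM or more did. The lowest adjusted p in the authors' deposited table was 1.00.

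That 1 gene was Zfp706, which encodes a small protein of 76 residues that represses translation in embryonic stem cells. Zfp706 was at 155, 136 and 148 CPM in the GFP Low libraries, 175, 183 and 175 in those of RFP and 123, 135 and 170 in those of GFP High. RFP lay above every library of the other groups. The log2 difference between GFP Low and RFP was -0.27 ± 0.08 (SE), with an unadjusted p of 0.006 and an adjusted p of 1.00 by edgeR. Processed copies of the gene, Gm10193 and Gm44419, matched its coding sequence at 98.7% identity or more and were counted at 0.13 and 0.01 CPM. The next genes by p-value were Zfp758, Zfp865, Zfp280d and Zfp282, all at an unadjusted edgeR p of at least 0.0533.

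Between GFP High and GFP Low none of the 154 genes passed an adjusted p under 0.05 by edgeR, and of all 14785 genes tested 0.0% did. Fold changes ran from -0.82 to 0.52 on the log2 scale, with a median of -0.02 against -0.00 over all genes tested and a median standard error of 0.19. At an unadjusted p under 0.05 there were 8 genes by edgeR, 10 by DESeq2 and 9 by limma-voom. Without GFP Low replicate 1 edgeR gave 2 and without GFP High replicate 3 it gave 17. The 8 genes made 5.19%, against 3.77% of all genes tested, with 1 higher in GFP High (background 1.85%) and 7 lower (background 1.92%). The replicates did not overlap for 18 genes, or 11.7% against 11.5%, of which 5 were higher (background 4.79%) and 13 lower (background 6.7%). A change of 0.5 or more was fitted for 7 genes, or 4.55% against 3.1% of the other protein-coding genes at that level. In the authors' deposited table the lowest adjusted p among the 154 genes was 0.459.

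This comparison shares its GFP High libraries with the comparison of GFP High and RFP, so the same genes can lead both. Zfp318 had a log2 difference of -0.47 ± 0.15 (SE, edgeR adjusted p = 0.998), Zfp60 of -0.29 ± 0.10 and Zfp759 of -0.82 ± 0.32. Zfp282, a KRAB gene, was at 12.1, 9.38 and 13.8 CPM in the GFP High libraries, 16.0, 18.4 and 24.04 in those of GFP Low and 16.9, 14.3 and 16.7 in those of RFP. It differed by -0.73 ± 0.26 between GFP High and GFP Low (SE, edgeR adjusted p = 0.998). Zfp790, a KRAB gene of the cluster at 29.77 to 30.17 Mb of chromosome 7, was at 7.34, 8.58 and 9.18 CPM in the GFP High libraries, 11.9, 13.6 and 12.8 in those of GFP Low and 12.4, 13.2 and 13.7 in those of RFP. For both genes GFP High lay below the other groups without overlap, and for neither did the adjusted p fall under 0.05.

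**Figure D4:**
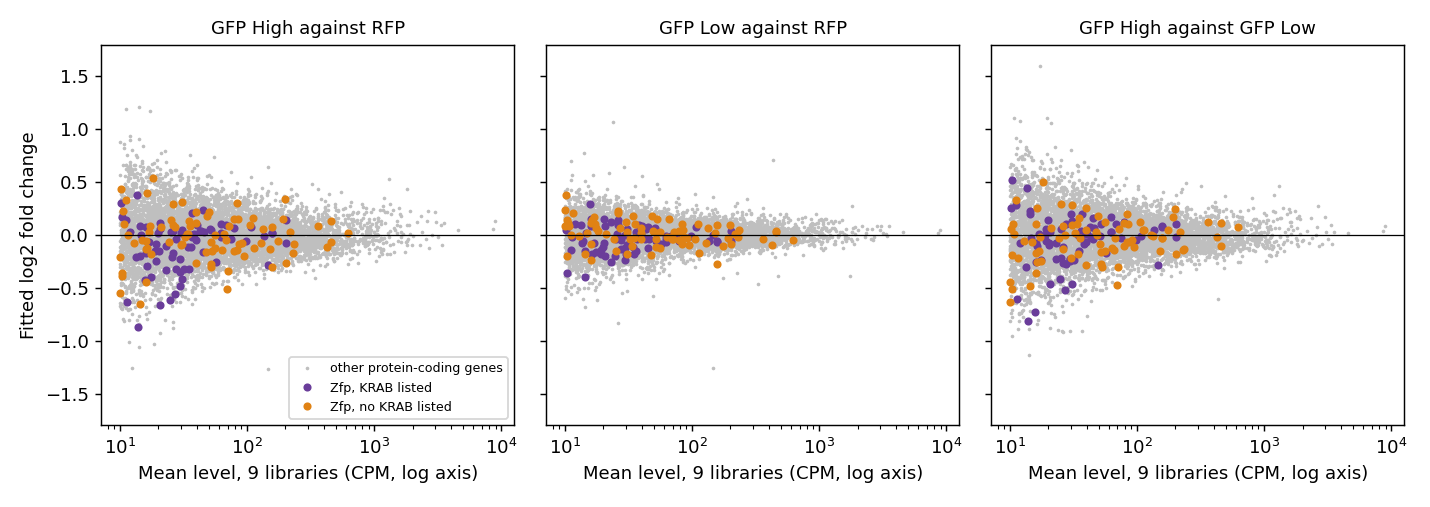
Fitted log2 fold change against mean CPM (log axis) in the 3 comparisons, for the 154 Zfp genes (coloured by whether a KRAB domain was listed) and the other protein-coding genes at 10 CPM or more (grey). The Zfp genes lie within the cloud of the others, between -0.87 and 0.53, and 1 other gene lies beyond the axis in each comparison with RFP.

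By domain, the 73 KRAB genes had a median log2 fold change of -0.03 between GFP High and RFP, -0.04 between GFP Low and RFP and -0.02 between GFP High and GFP Low, with none called. Of these genes 41, 48 and 41 had a negative value in these comparisons, which is 56.2%, 65.8% and 56.2%. Of the other protein-coding genes at 10 CPM or more, 51.7%, 50.8% and 51.5% had one. The 78 genes with none of the listed domains, which can include KRAB genes that were not listed, had medians of -0.01, 0.02 and -0.02, also with none called. KRAB genes were summed at 3121 ± 111 CPM for GFP High, 3177 ± 65.4 for GFP Low and 3271 ± 26.9 for RFP (SD, n = 3). The library sums of GFP High ran from 2993 to 3189 CPM, those of GFP Low from 3102 to 3219 CPM and those of RFP from 3246 to 3299 CPM. On CPM, without the scaling between libraries that the tests used, both GFP groups thus lay below RFP. The gap was narrow between GFP Low 1, at 3219 CPM, and RFP 2, at 3246 CPM. Sums of other genes were not compared in this way, so this order is not read as a trait of the KRAB genes. The summed oocyte markers were higher in each GFP High library than in each RFP library, but overlapped between GFP Low and RFP. The part of these markers in the KRAB sums was not tested. The genes with none of the listed domains were summed at 6931 ± 259 CPM for GFP High, 6967 ± 41.8 for GFP Low and 7068 ± 173 for RFP, which overlapped.

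By role, 7 listed genes are known as repressors of retroelements or guardians of imprints, and 4 of them were among the 154: Zfp932, Zfp568, Zfp445 and Zfp809. Zfp445, which maintains imprints together with Zfp57, was at 31.9, 16.9 and 25.1 CPM in the GFP High libraries, 30.9, 26.8 and 30.1 in those of GFP Low and 30.1, 30.3 and 43.5 in those of RFP. The groups overlapped, and the log2 difference between GFP High and RFP was -0.48 ± 0.25 (SE). Zfp568, which represses a placental transcript of Igf2, was at a mean of 8.41 FPKM and differed by -0.02 ± 0.22 between the same groups. Zfp809, which recognises the primer binding site of murine leukaemia viruses, was at 3.54 FPKM, and Zfp932, which binds endogenous retroviruses, at 16.8 FPKM. No gene of the 4 was called in any comparison or reached an unadjusted edgeR p under 0.05.

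Of 24 listed transcription and chromatin factors, 13 were among the 154, and none reached an unadjusted edgeR p under 0.05 in any comparison. Their median log2 fold change was 0.01 between GFP High and RFP, 0.04 between GFP Low and RFP and -0.00 between GFP High and GFP Low. Zfp592 led them at 61.1 FPKM. Zfp131, a BTB zinc finger protein, followed at 27.3 FPKM, then Zfp143, which binds promoters and chromatin loop anchors, at 22.4, and Zfp217, a partner of co-repressor complexes, at 7.74.

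Of 12 listed factors of RNA binding and translation, 7 were among the 154. Zfp830 led at 98.2 FPKM, followed by Zfp706 at 30.9, Zfp598, the ubiquitin ligase that senses collided ribosomes, at 25.4, and Zfp106, an RNA-binding protein, at 20.5. Of the 7, Zfp318 and Zfp706 reached an unadjusted edgeR p under 0.05 between GFP High and RFP, Zfp706 between GFP Low and RFP, and Zfp318 between GFP High and GFP Low. In these comparisons 4.09%, 2.62% and 3.77% of all genes tested did. None of the 7 was called after adjustment.

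Of 7 listed genes of spindle assembly, DNA repair, ubiquitin or SUMO transfer, 4 were among the 154. Zfp207 (BuGZ), a microtubule-binding protein that promotes spindle assembly and kinetochore attachment, was at 13.2 ± 0.808 FPKM for GFP High, 14.1 ± 0.247 for GFP Low and 15.0 ± 0.972 for RFP (SD, n = 3). Zfp91, a ubiquitin ligase, was at a mean of 22.6 FPKM, Zfp451, a SUMO ligase, at 14.6 and Zfp280b at 80.4. The 4 genes had log2 differences of -0.20 to -0.09 between GFP High and RFP, and each was under 2 of its standard errors.

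A list of genes of KRAB silencing, heterochromatin and DNA methylation was looked at beside the Zfp genes. All 22 listed genes were tested, none was called in any comparison, and their median log2 fold change was -0.02 between GFP High and RFP, 0.05 between GFP Low and RFP and -0.05 between GFP High and GFP Low. The highest were Dnmt1, the maintenance DNA methyltransferase, at 478 FPKM, its partner Uhrf1 at 225, Mphosph8 of the HUSH complex at 171 and Cbx1, a heterochromatin protein, at 131. Trim28 was at 23.2 FPKM and Setdb1 at 26.2 FPKM. At an unadjusted p under 0.05 by edgeR there were 2 of the 22 genes between GFP High and RFP, against 4.09% of all genes tested. There were 0 between GFP Low and RFP (background 2.62%) and 1 between GFP High and GFP Low (background 3.77%). The genes counted were Chd3, a chromatin remodeller, and Hdac1, a histone deacetylase. Chd3 had log2 fold changes of -0.58 ± 0.19 in the first comparison and -0.65 ± 0.20 in the last (SE, edgeR adjusted p = 0.997 and 0.998). Hdac1 had 0.63 ± 0.27 in the first (SE, edgeR adjusted p = 0.997). Its mean of 9.99 CPM lay just under the minimum of 10 CPM set for the Zfp genes.

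The spread between replicates of the 154 genes was widest in GFP High. Their median coefficient of variation was 17.0% for GFP High, 8.47% for GFP Low and 8.84% for RFP. It was widest in GFP High for 107 of the 154 genes, or 69.5%, and for 62.6% of the other protein-coding genes at 10 CPM or more. Those other genes had medians of 15.0%, 8.19% and 9.38%, so the wider spread of GFP High was shared. The GFP High pools also held the fewest oocytes, and pool size and group cannot be told apart. Of the 154 genes, 108 had their lowest and 79 their highest CPM in a GFP High library. The same was not counted for other genes, so these counts are not read as a trait of the Zfp genes.

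**Figure D5:**
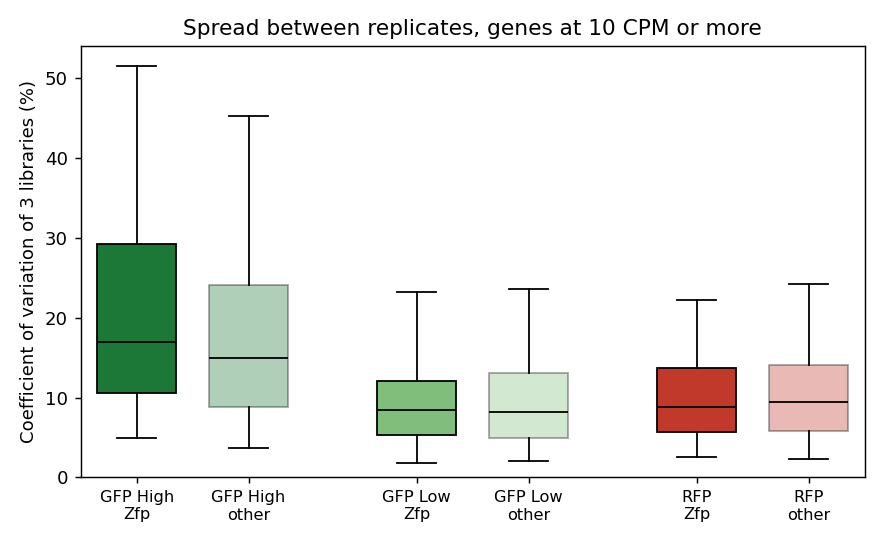
Coefficient of variation in percent between the 3 libraries of a group, for the 154 Zfp genes and the other protein-coding genes at 10 CPM or more. Boxes show the quartiles and the median, and whiskers the 5th and 95th percentiles. The medians of the Zfp genes are 17.0% for GFP High, 8.47% for GFP Low and 8.84% for RFP.

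The spread fell with level. Zfp genes at 10 to 20 CPM had a median coefficient of variation of 24.6% for GFP High, 11.95% for GFP Low and 11.98% for RFP, and those at 50 CPM or more had 12.3%, 6.45% and 7.14%. Over the 9 libraries, Zfp655, Zfp334 and Zfp109 varied least. Zfp109 kept between 34.6 and 39.8 CPM although its mean was only 37.0 CPM.

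Zfp979, Zfp414 and Zfp964 varied most. Zfp979, a KRAB gene, was at 22.5, 16.7 and 6.93 CPM in the GFP High libraries, 28.9, 15.7 and 19.5 in those of GFP Low and 37.8, 21.5 and 14.7 in those of RFP. Its values spread widely in every group, and stretches of its coding sequence match Zfp978, Zfp980 and Zfp600 at 95% identity or more. Zfp414 was at 3.15 CPM in GFP High 3 and between 6.35 and 16.8 CPM in the other 8 libraries.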

How the data were processed

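Poly-A RNA-seq of 9 libraries was analysed from 3 tables, 1 for each pair of groups. Per the submitters' processing notes, the tools included fastp, HISAT2 2.0.5, featureCounts 1.5.0-p3 and DESeq2 1.20.0, with the build mm10. The deposited tables hold raw read counts, which entered all tests, the authors' normalised signal per library, which was not used, and the authors' FPKM, used to compare levels between genes. The authors' own log2 fold changes and p-values are credited to their deposited table in each sentence that gives one. Counts were joined by gene identifier, and 178 genes that a table lacked were set to 0 there. CPM is the count over the library's sum.

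Each pair of groups was tested on its 6 libraries with edgeR 4.0.16 (filterByExpr, TMM, quasi-likelihood test, no covariate). The standard error of a fold change is its size divided by the square root of the test's F statistic. P-values were Benjamini-Hochberg adjusted over all genes tested, with a threshold of 0.05. "Not overlapping" means that every TMM-scaled CPM of a group lay on the same side of the other group. Alternatives were DESeq2 1.42.0, limma-voom (limma 3.58.1), other scaling and filters, a replicate block and leaving out each library. The procedure was tested on simulated data. The changes put into those data were larger than any fitted for the 154 genes on the 6 libraries of a pair. That test therefore does not show how often changes of the sizes seen here would be called. Coding sequences came from GENCODE release M21, where 147 of the 154 genes had the coordinates of the deposited tables, and near copies from BLAST 2.17.0. Counts carry no molecular identifiers, so depth gives counting error only.

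The genes and lists were chosen with earlier results of these data known. Named were the 10 genes with the highest FPKM, the 5 with the smallest p-value in each comparison, 3 at each side of the 10 CPM minimum, 3 at each end of the spread, those with the most fingers, and up to 4 of each list by FPKM. Zfp955a, Zfp955b, Zfp97, Zfp960 and Zfp932, named for near copies, and Zfp839, Zfp330, Zfp57, Chd3 and Hdac1 were chosen after their values were seen.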

Additional observations from a re-analysis of the deposited data

How the results depend on the processing

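No gene of the 154 was called in any comparison under any of 17 settings, among them DESeq2, limma-voom, other scaling, no filter, protein-coding genes only, all 9 libraries in 1 fit, bias-adjusted deviances (added after seeing the data), the replicate block and the fits without 1 library, so that the count of called genes ran from 0 to 0 when libraries were left out. The lowest adjusted p over all settings was 0.218 between GFP High and RFP (DESeq2), 0.818 between GFP Low and RFP (no filter) and 0.444 between GFP High and GFP Low (edgeR, without GFP High replicate 3). The 70 recomputed log2 fold changes of the named genes kept their direction in each comparison. These genes were named by their p-values in the same libraries, so stable directions were likely from the start and add no support. The median over the 154 genes moved without GFP High replicate 3, from -0.04 to -0.12 against RFP and from -0.02 to -0.09 against GFP Low. Without RFP replicate 1, 3 genes had an unadjusted edgeR p under 0.05 between GFP High and RFP, and without GFP High replicate 1 there were 17, against 11. Between GFP High and GFP Low there were 2 without GFP Low replicate 1 and 17 without GFP High replicate 3, against 8. Between GFP Low and RFP there were 2 to 4 without 1 library, against 1. The labels do not say whether same-numbered libraries shared anything but a number. Their deviations from the group means correlated at -0.11 to 0.14. With 3 pools a group, these values do not tell whether such libraries had a common origin. With the replicate block 0 genes of the 154 were called in each comparison. The median standard error was 0.13 to 0.19 on the log2 scale with 3 pools a group. Larger differences, such as that of Zfp318 between GFP High and RFP at -0.51, also did not pass after adjustment. The lack of called genes therefore does not show equal levels.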
